A study of Sus scrofa with 15 samples.

Results

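The genes described are 44 protein-coding genes of the kinetochore and of the spindle assembly checkpoint, chosen by name and sorted by complex, and measured in pig oocytes before and after maturation. A gene identifier was found for 43 of the 44, among 22516 genes in the deposited gene table, and each of the 43 also stayed among the 13230 genes tested. *KNL1* had no identifier in the gene name table and is only named here. The 3 groups held 5 libraries each, every library made from 15 pooled oocytes of abattoir sow ovaries. GV (germinal vesicle) oocytes came from fresh follicles without culture and had no polar body. MII (metaphase II) oocytes were matured *in vitro* inside their cumulus complexes (44 h by the labels, 42 to 44 h in the methods). They showed a first polar body, and ‘damaged’ oocytes came from the same culture but lacked one. The last group is thus defined by a missing polar body alone. Cumulus cells were removed enzymatically in all 3 groups. As in the study, MII and ‘damaged’ oocytes were also joined as MIX and compared with GV. GV oocytes were not cultured and all MII and ‘damaged’ oocytes were, so maturation and culture cannot be told apart in any comparison with GV.

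The kinetochore is the protein assembly that ties each chromosome to spindle microtubules. Its base is the CENP-A nucleosome, on which the constitutive centromere-associated network (CCAN) sits, and the MIS12, KNL1 and NDC80 complexes carry the connection outward to the microtubule. Kinetochores without attached microtubules recruit checkpoint proteins that hold back the anaphase-promoting complex, and in oocytes this delays the first meiotic division and extrusion of the polar body. The GV oocyte rests in prophase of the first division, and the MII oocyte rests in metaphase of the second.

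Libraries held 6.40 to 23.6 M estimated counts. GV replicate 3 had the lowest total and was left out of the tests, as the study left out the GV library with the fewest reads, so 4 GV libraries stood against 10 MIX libraries. Its 10 most abundant genes took 12.8% of counts, a share that ran from 7.07 to 7.48% in the remaining GV libraries and from 12.9 to 14.4% in MIX. The column names of the gene table contradicted the transcript files for 7 of 15 libraries. The names of the transcript files were used, and with these the nearest library of 15 of 15 libraries was of the same kind, GV or MIX. That check does not reach the division into MII and ‘damaged’, and which of the conflicting names are right was not settled. With the 8 libraries that carry the same name in both tables, here called those of undisputed name, the genes higher and lower in MIX (FDR under 0.01) numbered 23 and 9, against 25 and 10 with 14 libraries. These 8 were GV replicates 4 and 5 and replicates 3, 4 and 5 of MII and of ‘damaged’. For a call lost with them, the smaller number of libraries and the disputed names cannot be told apart. The summed TPM (a level corrected for transcript length and depth) of 9 oocyte markers was 15290 to 19161 in GV and 3596 to 5992 in MIX. That of 9 cumulus and granulosa markers was 7.44 to 11.6 in GV and 1.01 to 4.01 in MIX, with 6 of the 9 under 1 TPM in each GV library. Of the latter, *HSD17B1* stood at 5.95 ± 1.09 TPM in GV and 0.0452 ± 0.0791 in MIX, while *FSHR* stood at 0.495 ± 0.312 and 0.0986 ± 0.0778, *HAS2* at 0.141 ± 0.0648 and 0.0283 ± 0.0331, *PTGS2* at 0.446 ± 0.163 and 0.526 ± 0.0979 and *CYP11A1* at 0.0143 ± 0.0287 and 0.156 ± 0.141. Of the 3 that could be tested 1 was higher and 1 lower in MIX. Summed TPM of 5 dividing-cell markers was 5965 to 6707 in GV and 15921 to 18853 in MIX, of which *PCNA* made up most (5621 ± 467 and 16518 ± 1014). Of these 5, 3 were higher and 1 lower, and *MCM2* (means of 37.3 and 19.9) and *MCM5* (65.1 ± 29.9 and 10.7 ± 3.51) had lower TPM in MIX. Summed TPM of 4 blood markers was 1.85 to 2.98 in GV and 0.180 to 1.35 in MIX. In GV most of it was *CD3E* (1.93 ± 0.628, and 0.306 ± 0.197 in MIX), which alone of the 4 could be tested and was lower. Mean TPM of *CD68* was also lower in MIX (0.265 and 0.0121), while that of *PTPRC* (0.116 and 0.222) and *HBB* (0.0217 and 0.0882) was higher. The part of these shifts in the results was not tested. Because cDNA was primed from poly(A) and no amount per oocyte was recorded, a change in RNA amount, in poly(A) tail and in the share of the total cannot be told apart, nor can fewer contributing oocytes from less RNA per oocyte.

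Most of the 43 kinetochore and checkpoint genes differed between GV and MIX, and they moved in both directions. Here "rose" and "fell" mean a false discovery rate (FDR) under 0.01 over all genes tested by limma-voom, and a DEG also has an absolute log2 fold change over 2. The genes that rose numbered 25 and those that fell 10, while 8 did not pass. Among all genes tested, 30.3% were higher and 37.2% lower. As DEGs, 8 genes rose and 5 fell, beside 4.27% and 16.7% of all genes. Every MIX library lay above every GV library for 22 of the genes that rose and below every GV library for 8 of those that fell, beside 24.3% and 29.4% of all genes. These values use TMM factors, which scale each library to the bulk of its genes. On library sizes alone 17 genes were higher and 18 lower, beside 12.1% and 60.5% of all genes, and DEGs numbered 1 up and 9 down, beside 0.348% and 28.6%. The 10 genes that fell were lower on both scalings. Of the 25 that rose, 17 were also higher on library sizes, 7 no longer passed, and *MIS18A* was lower. A filter at 10 CPM, under which 40 of the 43 genes were tested, ended the calls of *HJURP*, *MIS18A*, *CENPU* and *TTK*. It left 5 DEGs up, beside 181 of all 7465 genes tested under it.

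The 2 scalings shift all genes together. Over all genes tested, the log2 fold change had a median of -0.16 with TMM factors and -1.06 on library sizes. Relative to that median, 29 of the 43 genes lay above and 14 below on both scalings, and no gene changed sides. The value of each gene relative to the median differed by at most 0.0276 between the scalings. The median over the 43 genes was 0.77 with TMM factors and -0.13 on library sizes, so it lay above the median of all genes under both.

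**Figure D1:**
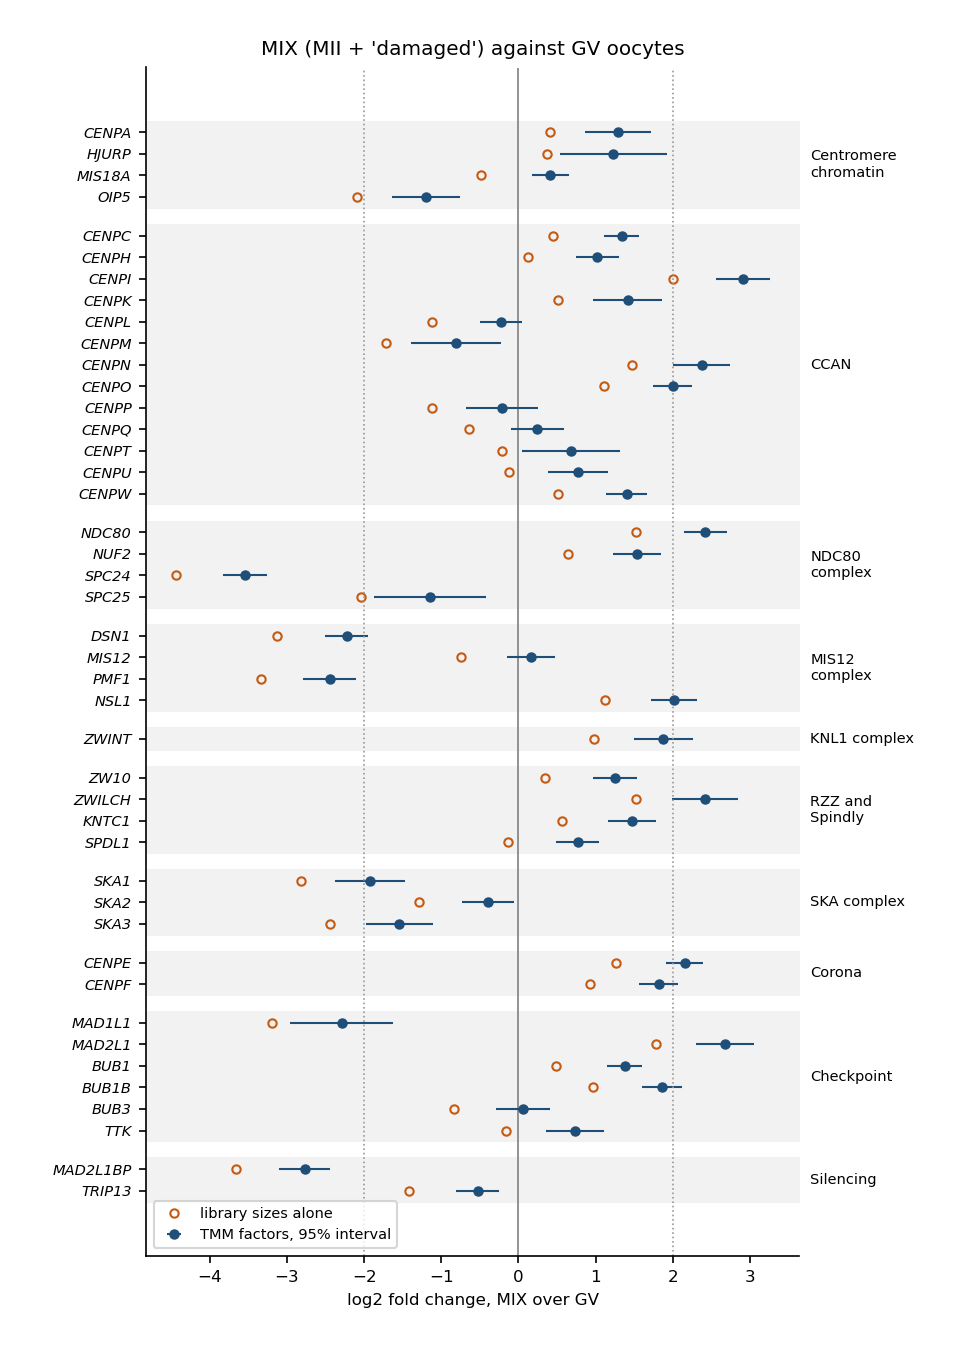
Log2 fold change of MIX over GV for the 43 genes, sorted by complex. Filled points with bars are estimates with TMM factors and their 95% intervals, open points are estimates on library sizes alone, and dotted lines mark -2 and 2. On either scaling, genes lie on both sides of 0 within the centromere chromatin, CCAN, NDC80 complex, MIS12 complex and checkpoint groups. The library-size points lie lower for each gene and cross below 0 for *MIS18A*, *CENPQ*, *CENPT*, *CENPU*, *MIS12*, *SPDL1*, *BUB3* and *TTK*.

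The NDC80 complex is the coupler that binds the microtubule at its outer end through NDC80 and NUF2 and docks at the kinetochore at its inner end through SPC24 and SPC25. The mRNAs of the outer pair rose and those of the inner pair fell, on both scalings, though the call of *SPC25* was lost under several alternatives. *NDC80* (ENSSSCG00000003697, chr6:104000794-104055785) measured 327, 222, 238 and 168 TMM-scaled CPM (counts relative to the scaled library total) in GV. In MII it measured 1293, 1363, 1102, 1443 and 1178, and in ‘damaged’ 1205, 1322, 1232, 1295 and 1046. No GV library came near a MIX library, and the mean went from 239 ± 66.2 to 1248 ± 120.2 CPM (SD, n = 4 and 10; log2 fold change 2.42 ± 0.13 (SE), FDR 1.45e-12). *NUF2*, its partner, went from 164 ± 56.7 to 461 ± 54.9 CPM (log2 fold change 1.54 ± 0.15 (SE), FDR 7.66e-09).

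*SPC24* (ENSSSCG00000033444, chr2:69884304-69890314) had the largest fall of the 43 genes. Its GV libraries measured 459.9, 368, 405 and 325 CPM. In MII the values were 35.2, 32.8, 29.7, 29.8 and 42.2 CPM, and in ‘damaged’ 36.4, 35.6, 25.3, 44.2 and 25.2 CPM. The groups did not overlap, and the fall was 11.7-fold (log2 fold change -3.54 ± 0.14 (SE), FDR 1.92e-14). *SPC25*, with which SPC24 pairs, spread more widely. Its values were 309.7, 197, 219 and 132 CPM in GV, 53.4, 55.6, 213, 90.4 and 67.9 in MII and 88.0, 102, 309, 65.3 and 62.2 in ‘damaged’. Replicate 3 of MII and of ‘damaged’ reached the GV range while the other 8 MIX libraries stayed below it, so the groups overlapped. The fall of *SPC25* passed (log2 fold change -1.15 ± 0.35 (SE), FDR 0.00565), but the call was lost with edgeR (FDR 0.0259), with DESeq2 (FDR 0.072), without the filter on low counts (FDR 0.0106), with all 5 GV libraries (FDR 0.0217), with the 8 libraries of undisputed name (FDR 0.287) and without any one of GV replicates 1, 2 and 4, MII replicates 1, 2 and 5 and ‘damaged’ replicates 4 and 5 (FDR 0.0102 to 0.0313). It held with the replicate number as a block (log2 fold change -1.52, FDR 2.70e-07), with the 10 CPM filter (-1.47, FDR 0.000745), on summed estimated counts (-1.13, FDR 0.00670), on library sizes (-2.04, FDR 1.36e-05) and without any other single library (FDR 0.000151 to 0.00854).

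The MIS12 complex joins the CCAN to the NDC80 and KNL1 complexes, and its 4 subunits also parted. *NSL1* rose, *DSN1* and *PMF1* fell, and *MIS12* did not pass with TMM factors and was lower on library sizes (log2 fold change 0.16 and -0.74). *NSL1* (ENSSSCG00000015593, chr9:130599901-130668935) measured 56.8, 40.1, 51.5 and 34.1 CPM in GV, 147, 172, 201, 199 and 180.2 in MII and 160.2, 185, 236, 187 and 156 in ‘damaged’. Every MIX library exceeded every GV library (log2 fold change 2.02 ± 0.14 (SE), FDR 6.18e-11). Its log2 fold change lay just over the DEG limit and was 1.12 on library sizes.

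*DSN1* (ENSSSCG00000007323, chr17:39992769-40017388), whose product receives Aurora B phosphorylation in this complex, measured 155, 119.5, 112 and 84.6 CPM in GV. In MII it measured 22.7, 23.0, 24.8, 24.4 and 23.9, and in ‘damaged’ 21.6, 22.3, 26.8, 26.0 and 30.2. The 10 MIX libraries lay close together and far below GV, a 4.69-fold fall (log2 fold change -2.23 ± 0.13 (SE), FDR 6.04e-12). *PMF1* (ENSSSCG00000052919, chr4:93810863-93836786) measured 41.7, 42.3, 40.4 and 57.9 CPM in GV, 5.99, 7.03, 9.29, 6.39 and 10.05 in MII and 8.34, 5.92, 10.8, 11.8 and 8.72 in ‘damaged’. It fell 5.46-fold without overlap (log2 fold change -2.45 ± 0.16 (SE), FDR 2.96e-11).

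Ratios between genes within a library do not depend on the scaling between libraries, and they show how far members of one complex parted. Pairs were taken as the largest riser and the largest faller of a complex, so the values are a description without a test. The TPM of *NDC80* was 0.984 to 1.36 times that of *SPC24* in the 4 GV libraries, and 53.3 to 93.0 times in the 10 MIX libraries. For *NSL1* over *PMF1* the ratio was 0.546 to 1.27 in GV and 14.7 to 29.1 in MIX. For *CENPA* over *OIP5* it was 4.10 to 8.14 in GV and 15.9 to 75.8 in MIX. In the GV oocyte the transcripts of *NDC80* and *SPC24* were thus about level, whereas in every MIX library *NDC80* was far ahead.

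**Figure D2:**
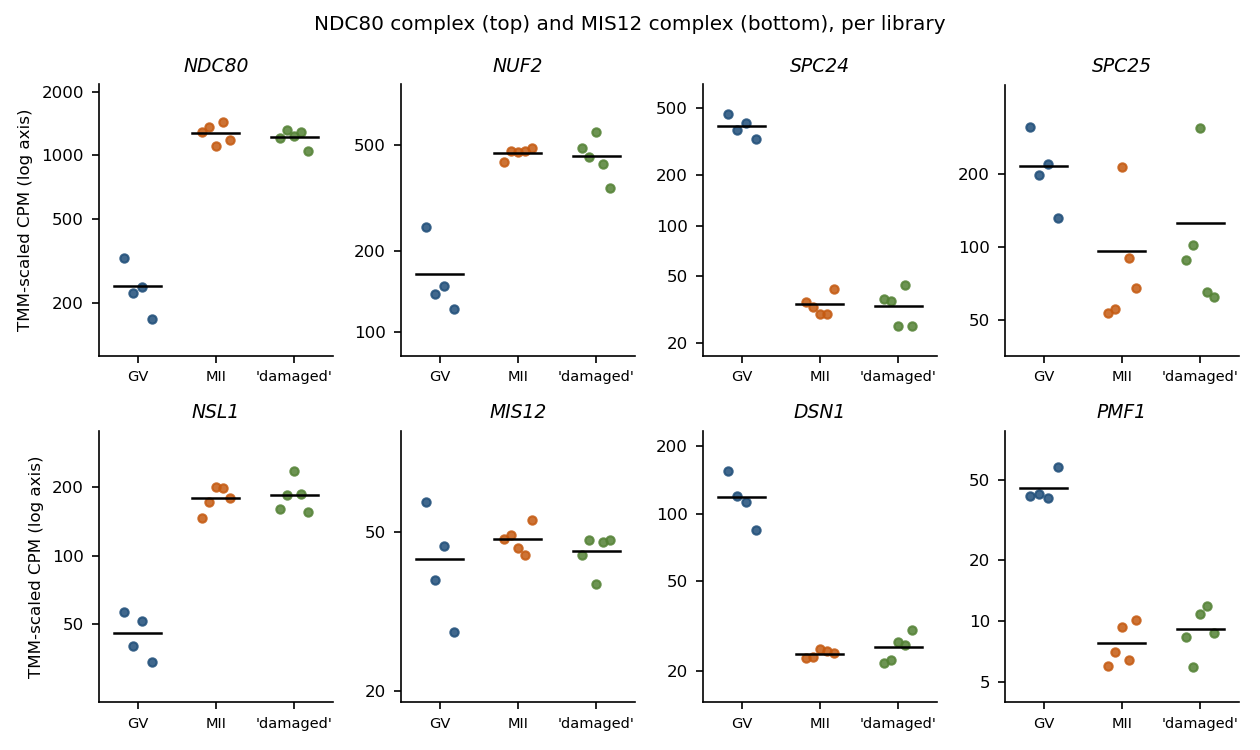
TMM-scaled CPM on a log axis of the 4 NDC80 complex genes (top) and the 4 MIS12 complex genes (bottom), with 1 point per library (4 GV, 5 MII, 5 ‘damaged’) and a line at the group mean. *NDC80*, *NUF2* and *NSL1* are higher in each MII and ‘damaged’ library than in any GV library, *SPC24*, *DSN1* and *PMF1* are lower, and *SPC25* and *MIS12* overlap.

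*ZWINT*, the one measured member of the KNL1 complex and a link to the RZZ complex, measured 14.2, 9.46, 10.7 and 8.63 CPM in GV. Its values were 34.2, 43.5, 49.3, 36.8 and 29.3 in MII and 38.1, 35.9, 51.5, 47.0 and 28.6 in ‘damaged’. It rose without overlap (log2 fold change 1.88 ± 0.18 (SE), FDR 7.78e-09) and was also higher on library sizes (0.98).

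At the centromere itself, *CENPA*, the histone H3 variant that marks the site, *HJURP*, its chaperone, and *MIS18A*, a licensing factor for its loading, rose with TMM factors, while *OIP5*, the partner of MIS18A, fell. On library sizes none of the 3 passed as higher and *MIS18A* was lower. *CENPA* measured 18.7, 37.9, 30.2 and 37.0 CPM in GV, 95.5, 91.6, 45.7, 78.8 and 63.3 in MII and 72.8, 82.7, 49.8, 82.2 and 91.1 in ‘damaged’. The groups did not overlap (log2 fold change 1.29 ± 0.21 (SE), FDR 9.29e-06), and on library sizes the log2 fold change was 0.41. *MIS18A* measured 119.8, 105, 109 and 96.2 CPM in GV, 144, 129, 134, 129.7 and 196 in MII and 148, 132, 144, 129 and 155 in ‘damaged’. Its rise was small (log2 fold change 0.42 ± 0.12 (SE), FDR 0.00292), turned to -0.48 on library sizes, and lost its call without GV replicate 2 or GV replicate 5 and with the 8 libraries of undisputed name. *HJURP* was low and its groups overlapped, at 5.64 ± 3.08 CPM in GV and 12.0 ± 3.30 in MIX (log2 fold change 1.23 ± 0.33 (SE), FDR 0.00222), and its call was lost without GV replicate 1 (log2 fold change 0.80). *OIP5* fell from 7.02 ± 0.607 to 3.17 ± 1.03 CPM (log2 fold change -1.20 ± 0.21 (SE), FDR 3.30e-05).

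Of the 13 CCAN genes measured, 8 rose, 0 fell and 5 did not pass with TMM factors, and on library sizes 5 were higher (*CENPC*, *CENPI*, *CENPN*, *CENPO* and *CENPW*) and 4 lower (*CENPL*, *CENPM*, *CENPP* and *CENPQ*). Of all genes tested, 30.3% were higher and 37.2% lower with TMM factors, and 12.1% and 60.5% on library sizes. The 3 DEGs of the CCAN were *CENPI*, *CENPN* and *CENPO*. *CENPI* (ENSSSCG00000012491, chrX:82776375-82826651), part of the module with CENPH, CENPK and CENPM, measured 54.9, 28.0, 41.5 and 22.9 CPM in GV. It measured 223, 263, 265, 304 and 234 in MII and 263, 278, 290.3, 273 and 223 in ‘damaged’. The groups were far apart (log2 fold change 2.91 ± 0.17 (SE), FDR 2.77e-12), and *CENPI*, alone of the 8 DEGs that rose, was also a DEG on library sizes (2.01).

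*CENPN* (ENSSSCG00000039216, chr6:7227981-7254927), which reads the CENP-A nucleosome together with CENPL, measured 59.4, 34.0, 36.7 and 22.1 CPM in GV. In MII the values were 175, 202, 178, 195 and 206, and in ‘damaged’ 206, 179.9, 193, 191 and 134. It rose without overlap (log2 fold change 2.38 ± 0.18 (SE), FDR 1.26e-10), while its partner *CENPL* measured 53.5 ± 2.88 CPM in GV and 46.1 ± 8.09 in MIX and did not pass (log2 fold change -0.23 ± 0.13 (SE), FDR 0.123). *CENPO* (ENSSSCG00000055702, chr3:113968735-113979201), of the module with CENPP, CENPQ and CENPU, measured 174, 133, 153 and 134 CPM in GV, 487, 702, 617, 622 and 674 in MII and 545, 566, 637, 629 and 466 in ‘damaged’. Its log2 fold change of 2.001 ± 0.12 (SE) lay at the DEG limit (FDR 6.18e-12).

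Members of the same CCAN module differed. In the first module *CENPI* had the largest rise, *CENPH* (1.02) and *CENPK* (1.42) rose with TMM factors but not on library sizes (0.12 and 0.51), and *CENPM* did not pass (log2 fold change -0.81 ± 0.28 (SE), FDR 0.0133). In the module of *CENPO*, *CENPU* rose with TMM factors but not on library sizes (0.77 and -0.13), and *CENPP* (-0.22) and *CENPQ* (0.25) did not pass with TMM factors and were lower on library sizes (-1.12 and -0.64). *CENPU*, by TPM the most abundant CCAN gene over the libraries, measured 727, 370.0, 446 and 248 CPM in GV, 648, 666, 816, 755 and 707 in MII and 789, 745, 859, 627 and 522 in ‘damaged’, and one GV library lay inside the MIX range. *CENPC*, the scaffold from the nucleosome to the MIS12 complex, rose from 119 ± 8.48 to 302 ± 33.2 CPM (log2 fold change 1.34 ± 0.11 (SE), FDR 5.20e-10). *CENPW* rose (log2 fold change 1.40 ± 0.13 (SE), FDR 2.41e-09), whereas *CENPT*, its histone-fold partner and the second anchor of the NDC80 complex, was low at 1.84 ± 0.429 CPM in GV and 3.10 ± 1.35 in MIX and did not pass (log2 fold change 0.68 ± 0.31 (SE), FDR 0.0508).

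The RZZ complex (KNTC1, ZW10, ZWILCH) with Spindly (*SPDL1*) recruits dynein to kinetochores and builds the fibrous corona. The 4 genes rose with TMM factors, beside 30.3% of all genes. On library sizes 3 were higher, beside 12.1% of all genes, and *SPDL1* did not pass (-0.13). *ZWILCH* (ENSSSCG00000004946, chr1:164481784-164526843) measured 179, 85.5, 124 and 66.6 CPM in GV, 545, 591, 601, 694 and 452 in MII and 647, 621, 754, 484 and 377 in ‘damaged’. It rose 5.35-fold without overlap (log2 fold change 2.42 ± 0.20 (SE), FDR 9.39e-10), and *ZW10* and *KNTC1* rose with log2 fold changes of 1.25 and 1.47. Of the corona, *CENPE* (ENSSSCG00000023296, chr8:117888968-117965325), the kinesin that carries chromosomes to the spindle equator, measured 238, 181, 196 and 156 CPM in GV. In MII it measured 943, 948, 839, 937 and 719.8, and in ‘damaged’ 848, 857, 898, 810.0 and 723. The groups did not overlap (log2 fold change 2.16 ± 0.12 (SE), FDR 1.06e-12). *CENPF*, a large corona protein that binds microtubules, rose from 58.1 ± 9.19 to 205 ± 23.3 CPM (log2 fold change 1.82 ± 0.12 (SE), FDR 2.85e-11), and both corona genes were also higher on library sizes.

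The SKA complex, which follows depolymerising microtubule ends together with the NDC80 complex, had no gene that rose. *SKA1* and *SKA3* fell on both scalings, and *SKA2* did not pass with TMM factors and was lower on library sizes (-0.39 and -1.29). *SKA1* measured 1015, 759, 740.3 and 617 CPM in GV, 141, 154, 377, 175 and 237 in MII and 178, 175, 366, 185 and 164 in ‘damaged’. Each MIX library lay below each GV library (log2 fold change -1.92 ± 0.22 (SE), FDR 6.96e-08), with replicate 3 of MII and of ‘damaged’ the highest of their groups. *SKA3* fell from 17.3 ± 1.17 to 6.29 ± 2.68 CPM (log2 fold change -1.55 ± 0.21 (SE), FDR 9.01e-07).

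Among the 6 checkpoint genes, 4 rose, 1 fell and 1 did not pass, beside 30.3% and 37.2% of all genes that rose and fell. On library sizes 3 were higher and 2 lower, beside 12.1% and 60.5% of all genes. *MAD2L1* (ENSSSCG00000036256, chr8:103927358-103936669) encodes MAD2, which is converted to its active form on MAD1 and then binds CDC20. It measured 641, 325, 448 and 219 CPM in GV, 2526, 2844, 2263, 2537 and 2465 in MII and 2561, 2396, 2243, 2504 and 1924 in ‘damaged’. The rise was 6.39-fold (log2 fold change 2.68 ± 0.18 (SE), FDR 2.63e-11). *MAD1L1* (ENSSSCG00000038766, chr3:1236066-1559346), the gene of its kinetochore platform MAD1, was barely detected and fell. It measured 2.53, 1.46, 1.63 and 2.39 CPM in GV, 0.439, 0.264, 0.536, 0.268 and 0.360 in MII and 0.561, 0.176, 0.141, 0.743 and 0.777 in ‘damaged’. The groups did not overlap (log2 fold change -2.29 ± 0.32 (SE), FDR 1.59e-06), but a MIX library held only 2.32 to 11.5 counts of it. The TPM of *MAD2L1* was 257 to 768 times that of *MAD1L1* in GV and 6933 to 44614 times in MIX.

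*BUB1B*, the gene of BUBR1 in the mitotic checkpoint complex, went from 442 ± 46.9 to 1615 ± 246 CPM (log2 fold change 1.86 ± 0.12 (SE), FDR 2.29e-11), and *BUB1*, its kinase relative, from 68.7 ± 4.11 to 179 ± 18.4 CPM (log2 fold change 1.38 ± 0.11 (SE), FDR 3.88e-10). *BUB3*, which carries both to KNL1, measured 252 ± 87.5 CPM in GV and 254 ± 47.3 in MIX and did not pass with TMM factors (0.06), was lower on library sizes (-0.84), and had a value of -0.41 on summed estimated counts. *TTK*, the MPS1 kinase that starts checkpoint signalling, measured 94.0, 78.9, 83.1 and 74.3 CPM in GV, 142, 188, 204, 154 and 126 in MII and 114, 181, 102, 101 and 100.5 in ‘damaged’. It rose with TMM factors but not on library sizes (0.73 and -0.17), and its call was lost with the 8 libraries of undisputed name.

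The silencing genes fell on both scalings. *MAD2L1BP* (ENSSSCG00000016346, chr7:38613349-38623845) encodes p31comet, the adaptor that hands MAD2 to the ATPase TRIP13 for removal from the checkpoint complex. It measured 19.4, 23.5, 17.8 and 20.4 CPM in GV, 3.10, 2.25, 2.06, 2.31 and 2.83 in MII and 2.93, 3.23, 3.90, 3.93 and 3.25 in ‘damaged’. The groups lay far apart, a 6.82-fold fall (log2 fold change -2.77 ± 0.16 (SE), FDR 2.68e-12). *TRIP13* measured 26.7, 34.5, 30.5 and 36.9 CPM in GV, 29.1, 21.3, 24.1, 16.7 and 20.0 in MII and 26.8, 20.4, 22.4, 21.4 and 22.8 in ‘damaged’. Its fall was small and the groups overlapped (log2 fold change -0.53 ± 0.14 (SE), FDR 0.00149).

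**Figure D3:**
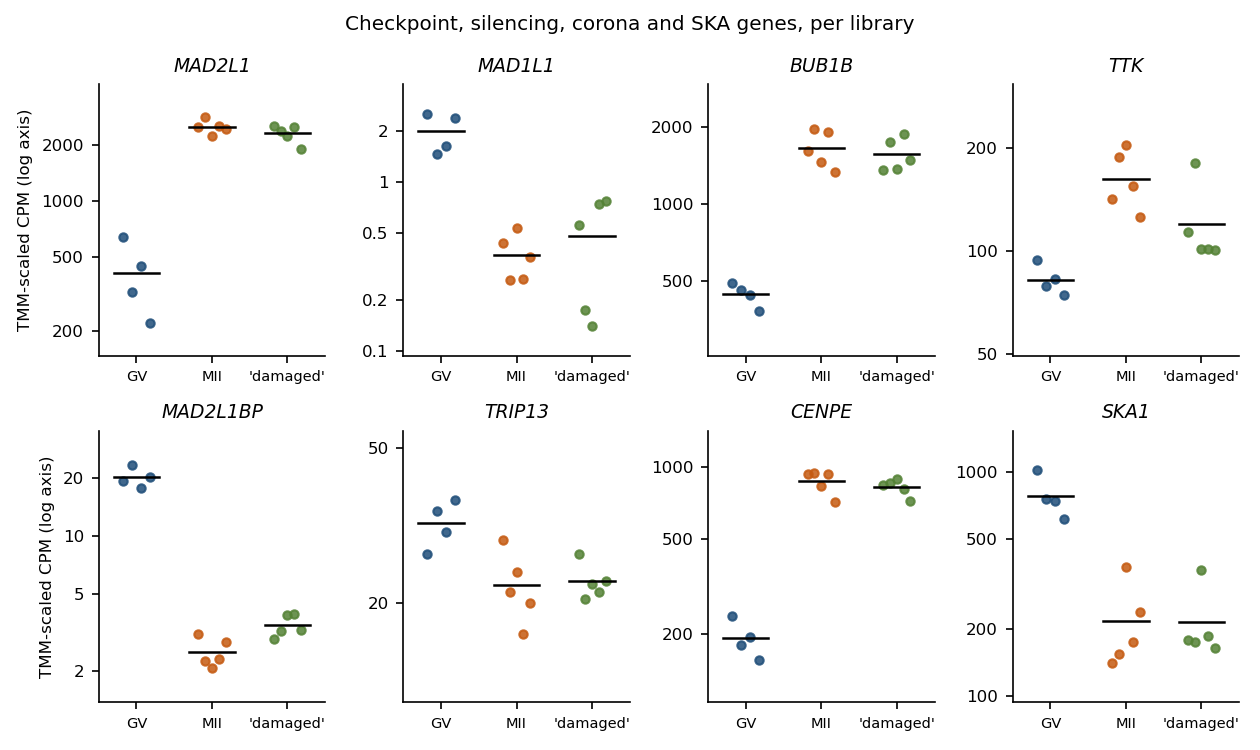
TMM-scaled CPM on a log axis of 4 checkpoint genes (top), 2 silencing genes, *CENPE* and *SKA1* (bottom), with 1 point per library and a line at the group mean. *MAD2L1*, *BUB1B* and *CENPE* are higher in each MII and ‘damaged’ library than in GV, *MAD1L1*, *MAD2L1BP* and *SKA1* are lower, and *TTK* lies above GV with TMM factors though not on library sizes.

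The DEG limit cut through a run of close values. Just inside it lay *CENPO* (2.001), *NSL1* (2.02) and *CENPE* (2.16), and just outside *SKA1* (-1.92), *ZWINT* (1.88) and *BUB1B* (1.86).

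Levels between genes were compared per transcript length, as TPM. In GV *SKA1* stood highest of the 43 genes at 1970 ± 132 TPM (SD, n = 4), followed by *MAD2L1* at 699 ± 203 and *CENPU* at 669 ± 195, which did not differ beyond their spread. *CENPH* (415 ± 25.5) and *CENPW* (400.2 ± 39.1) came next. In MIX *MAD2L1* stood highest at 2130 ± 108 TPM (SD, n = 10), above 99.6% of the genes tested. Below it *NDC80* (637 ± 37.8), *CENPU* (549 ± 76.9), *CENPW* (521 ± 50.8) and *BUB1B* (515 ± 73.1) overlapped in part. *SKA1* was at 274 ± 120.2 TPM in MIX. The lowest in GV were *MAD1L1* (1.28 ± 0.389 TPM), *CENPT* (3.40 ± 1.26), *ZWINT* (4.83 ± 0.325) and *OIP5* (5.69 ± 0.907), and in MIX *MAD1L1* (0.137 ± 0.0799), *OIP5* (1.27 ± 0.470), *MAD2L1BP* (1.31 ± 0.315) and *SKA3* (1.58 ± 0.778). In both GV and MIX *MAD1L1* lay below the next gene by more than their spread. Within the MIS12 complex the order turned over, since *DSN1* stood highest in GV (96.1 ± 10.6 TPM) and *NSL1* in MIX (113 ± 18.5 TPM, against 10.1 ± 1.82 for *DSN1*).

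The comparison of MII with ‘damaged’ asks whether oocytes that had extruded a polar body differed from those that had not. Which library was MII and which ‘damaged’ was taken from the transcript files, and rests on those names alone where the gene table gives another. None of the 43 genes differed by limma (FDR under 0.01), nor did any of all genes tested (0%), nor with edgeR, with DESeq2 or with the 8 libraries of undisputed name. Those 8 held only 3 MII and 3 ‘damaged’ libraries. The smallest FDR was 1.00, and 2 of the 43 genes had an unadjusted p under 0.05, beside 1.47% of all genes, and 3 had one with edgeR and 3 with DESeq2. The 2 genes by limma were *TTK*, at 163 ± 32.3 CPM in MII and 119.7 ± 34.7 in ‘damaged’ (log2 difference 0.46, 95% interval 0.11 to 0.81), and *MAD2L1BP*, at 2.51 ± 0.434 and 3.45 ± 0.444 CPM (-0.47, -0.90 to -0.04). The MII and ‘damaged’ libraries of *TTK* overlapped, and those of *MAD2L1BP* overlapped as well. Each of these libraries held only 26.6 to 64.2 counts of *MAD2L1BP*. The widest log2 difference was that of *CENPT* (-0.63, -1.26 to 0.01), a gene of low counts.

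The intervals give the range of differences that the data leave room for. For 39 of the 43 genes the 95% interval lay within -1 and 1 on the log2 scale, and the exceptions were *HJURP*, *CENPT*, *SPC25* and *MAD1L1*. Half-widths ran from 0.242 to 1.05 with a median of 0.366. The median absolute log2 difference was 0.0804 over the 43 genes and 0.123 over all genes. In each gene the interval leaves room for a difference out to its far limit, so the 2 groups are not shown to be alike.

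**Figure D4:**
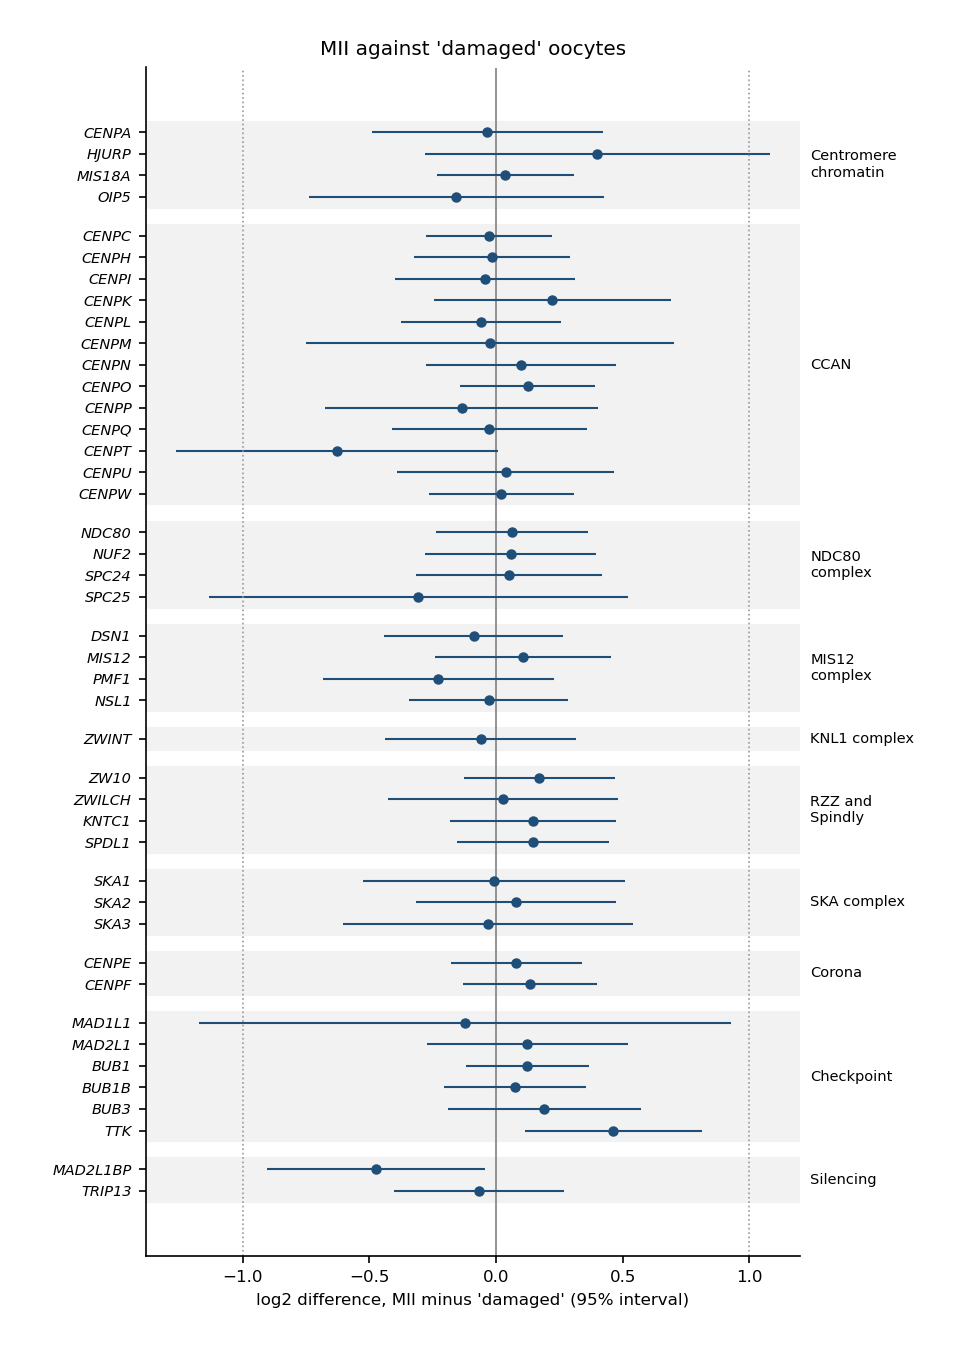
Log2 difference of MII minus ‘damaged’ oocytes for the 43 genes with 95% intervals, sorted by complex, with dotted lines at -1 and 1. The intervals include 0 for 41 genes and leave it out for *TTK* and *MAD2L1BP*, neither of which passed after adjustment.

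Each group was also set against the same 4 GV libraries, so both comparisons share their controls. In MII 25 genes rose and 10 fell, beside 28.2% and 34.2% of all genes. In ‘damaged’ 23 rose and 8 fell, beside 28% and 33.4%. On library sizes 16 were higher and 18 lower in MII, beside 10.9% and 57.5% of all genes, and likewise 16 and 18 in ‘damaged’, beside 11.2% and 56%. For *NDC80* the log2 fold changes were 2.45 in MII and 2.39 in ‘damaged’, for *SPC24* -3.52 and -3.57, and for *MAD2L1* 2.74 and 2.61. The genes that passed in MIX but not in ‘damaged’ were *HJURP* (FDR 0.0172), *MIS18A* (0.014), *SPC25* (0.034), *TTK* (0.0177) and *TRIP13* (0.0101), and *CENPT* passed in ‘damaged’ (0.99, FDR 0.00882) but not in MIX. None of these 6 differed between MII and ‘damaged’ after adjustment.

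Transcript use could be tested for 19 of the genes, those with at least 2 transcripts above the count filter. A gene was called when a transcript passed an FDR under 0.01 in limma's diffSplice and its share of the gene's TPM shifted by over 10 percentage points between GV and MIX. By this 8 of the 19 genes were called (42.1%), beside 43% of 5304 genes tested. *ZWILCH* had the widest shift. Its shorter transcript, ENSSSCT00000005458.5, went from 33.5% of the gene's TPM in GV (lowest to highest library 18.6 to 54.5%) to 71.9% in MIX (66.5 to 75.8%; FDR 2.85e-05), so the rise of the gene went with a change of its main transcript by mean share. The lengths of its 2 transcripts are 1741 and 2749 bases.

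In *DSN1*, which fell as a gene, ENSSSCT00000008013.5 went from 35.5 to 63.6% (FDR 1.40e-05) and ENSSSCT00000086223.2 from 54.3 to 33.1%. In *BUB3*, which did not pass as a gene, the 438-base transcript ENSSSCT00000082266.2 went from 20.2 to 47.7% (FDR 0.00113), with 0% in at least one GV library. The share of the *TTK* transcript ENSSSCT00000004933.3 fell from 22.2 to 1.64% (FDR 4.73e-09), without overlap. One *ZW10* transcript, ENSSSCT00000065080.2, was listed at 0 in the 4 GV libraries and made up 10.9 to 35.6% in MIX. The shifts of *CENPC*, *SKA2* and *NSL1* were 12.5, -14.1 and 10.02 percentage points for one transcript each, the last just over the limit. Without GV replicate 2, 5 genes were called.

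**Figure D5:**
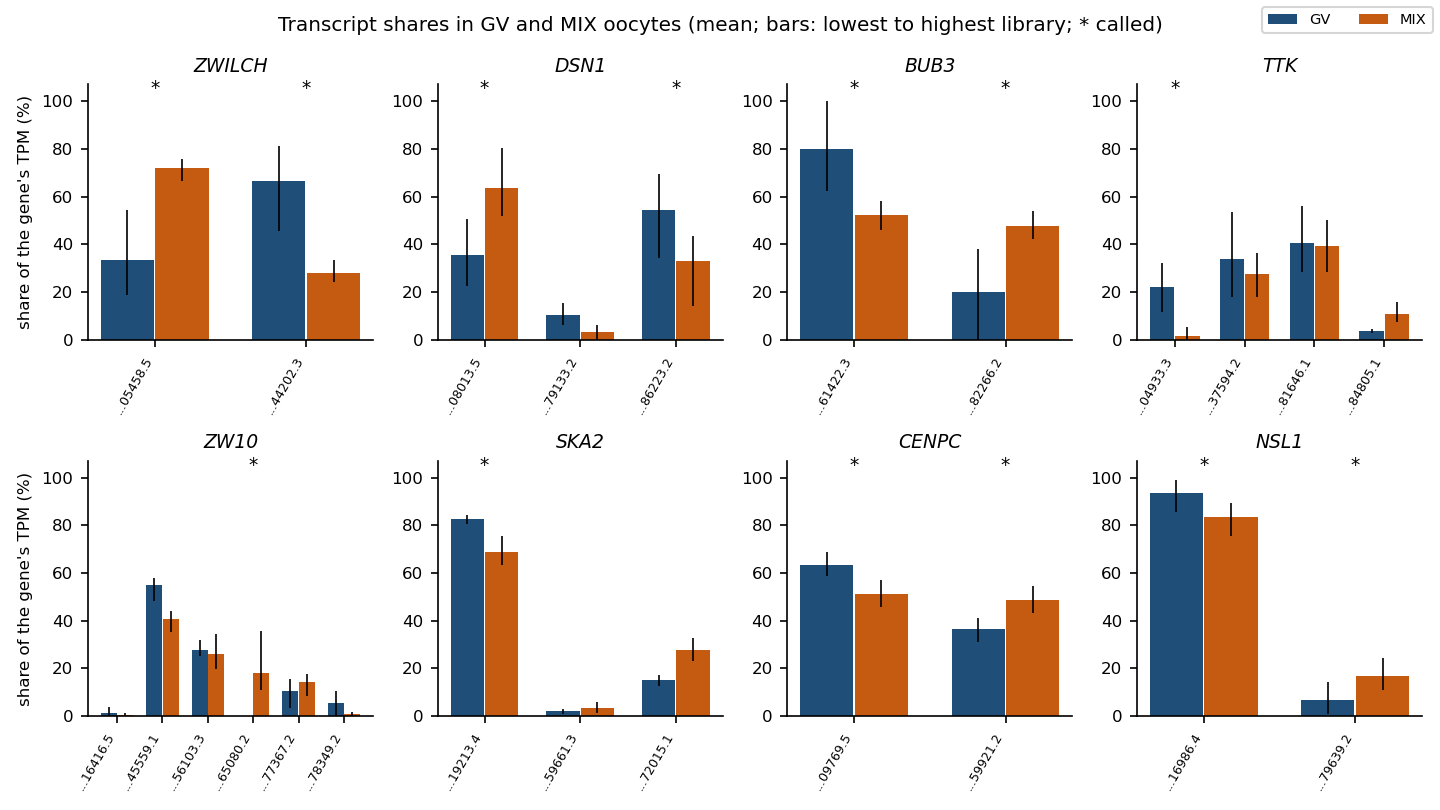
Share of a gene's TPM held by each tested transcript in GV (4 libraries) and MIX (10 libraries) for the 8 genes called, with bars at the mean, whiskers from the lowest to the highest library, and stars at transcripts that passed both limits. Labels are the last digits of the Ensembl transcript names. By mean share the main transcript changes in *ZWILCH* and *DSN1*, though not against every GV library, and a *ZW10* transcript at 0 in GV appears in MIX.

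Of 22 other kinetochore and checkpoint genes listed for comparison, 17 were tested. With TMM factors 8 of the 17 rose and 6 fell, beside 30.3% and 37.2% of all genes tested. On library sizes 5 were higher and 8 lower, beside 12.1% and 60.5% of all genes. The DEGs were *SGO2* and *SGO1*, the shugoshins that protect centromeric cohesion (log2 fold change 2.73 ± 0.16 (SE), FDR 3.12e-12, and 2.22 for *SGO1*), *KNSTRN*, which holds kinetochores to the spindle (2.17), *CDC20*, the target of the checkpoint (log2 fold change 2.06 ± 0.12 (SE), FDR 4.74e-12), and *SPAG5* (-2.86), the partner of KNSTRN. *KNSTRN* went from 244 ± 97.8 to 1038 ± 99.1 CPM while *SPAG5* went from 20.5 ± 4.08 to 2.97 ± 1.11 CPM, so this pair too parted, on both scalings. *CENPB* was listed at or near 0.

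The 43 genes lay on 17 chromosomes of Sscrofa11.1, by RefSeq positions. Of the 43, 12 overlapped another protein-coding gene in that annotation, among them *SPC25* with *NOSTRIN* and *OIP5* with *NUSAP1*. The DEGs among the 12 were *NSL1* with *TATDN3*, *CENPO* with *ADCY3* and *PTRHD1*, *ZWILCH* with *LCTL*, and *MAD1L1* with LOC110259832 and LOC106509613. The SMART-Seq HT kit does not mark strand, so reads over exons shared by such a pair cannot be told apart, and their values are less certain. The median transcript length was 2385 bases for the 25 genes that rose and 2990 for the 10 that fell, beside 3007 and 2669 for all genes that rose or fell.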

How the data were processed

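RNAseq libraries of pig oocytes (5 each of GV, MII and ‘damaged’, 15 oocytes per library) were made by the authors with the SMART-Seq HT kit and read as 75-base single ends. The authors trimmed reads with AfterQC and made the deposited estimated counts and TPM values per transcript with Kallisto (0.43 in the submitters' processing notes, with limma unversioned) from Ensembl cDNA of Sscrofa11.1. The authors' gene table held estimated counts from tximport (lengthScaledTPM), not normalized between libraries. Of its 15 columns, 8 had the total of the library they name and 7 that of another, which were not used. Gene counts of the 15 libraries were rebuilt from the transcript files by the same formula, after finding each gene's transcripts over the 8 columns (18954 of 18954 genes with a count).

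Genes passed filterByExpr (edgeR 4.0.16; minimum count 10, minimum total 15) and were tested with limma 3.58.1 (voom, eBayes) in R 4.3.3 with TMM factors on 14 libraries, with 2 groups for MIX and 3 for the rest. TMM factors were used because GV and MIX differ in composition. GV factors spanned 1.35 to 1.73, and MIX factors 0.794 to 0.922. FDR is Benjamini-Hochberg over all genes. Transcript use was tested with diffSplice in place of DEXSeq. Fits were tested on simulated data. Alternatives were library sizes, edgeR, DESeq2 1.42.0, other filters, all 5 GV libraries, summed estimated counts, a replicate block, leaving out each library and, chosen after seeing the column names, the 8 libraries of undisputed name. Summaries used Python with pandas and scipy. Members, lists and marker genes were chosen with earlier results of these data known. Values in every library are given for DEGs, for each complex's gene of largest change and of highest TPM, and for the 2 genes of smallest p between MII and ‘damaged’. Those of *SPC25* are given as well, outside this rule. The 15 libraries came from 5 collections, each of which by the methods gave oocytes of each group. The main fits count the libraries as independent, the 10 of MIX among them. Their p-values thus measure the spread between these pools and not between collections. No sequences are shown.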

Additional observations from a re-analysis of the deposited data

Results flagged for a closer look

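Within each group, the highest or lowest library of each of the 43 genes was set against the rest of its group by Dixon's 95% limit. Of 129 groups of values 9 were past it, and chance gives about 1 in 20. Values are TMM-scaled CPM.

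Replicate 3 after maturation held 4 of the 9. *SPC25* was at 213 in MII replicate 3, against 53.4 to 90.4 in the other MII libraries, and at 309 in ‘damaged’ replicate 3, against 62.2 to 102 in the others. *SKA3* was at 12.8 in MII replicate 3 (others 4.12 to 5.45), and *SKA1* at 366 in ‘damaged’ replicate 3 (others 164 to 185). These 3 genes were among those lower in MIX than in GV, and in each case the outlying library was the one nearest to the GV values.

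*MIS18A* was at 196 in MII replicate 5 (others 129 to 144), and *KNTC1* at 94.5 in the same library (others 138 to 149). *PMF1* was at 57.9 in GV replicate 5 (others 40.4 to 42.3). *CENPC* was at 256 in ‘damaged’ replicate 1 (others 308 to 325), and *TTK* at 181 in ‘damaged’ replicate 2 (others 100.5 to 114).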

How the results depend on the processing

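Library sizes without TMM factors moved the counts most: 18 genes were lower in MIX, DEGs numbered 1 up and 9 down, 16 were higher and 18 lower in MII, and 18 were lower in ‘damaged’. Under them *MIS18A* (-0.48), *CENPQ* (-0.64), *CENPU* (-0.13), *MIS12* (-0.74), *SPDL1* (-0.13), *CENPT* (-0.21), *BUB3* (-0.84) and *TTK* (-0.17) turned below 0, and *BUB3* (-0.41) also on summed estimated counts. A filter at 10 CPM left 5 DEGs up with 40 of the 43 genes tested, beside 181 of all 7465 genes tested under it. A limit of 0.2 on the shift in transcript share left 4 genes. The cause of these moves was not tested. Leaving out 1 library at a time gave 24 to 25 genes higher and 9 to 11 lower in MIX, 6 to 9 DEGs up and 5 to 6 down, 23 to 25 higher and 8 to 10 lower in MII, 21 to 23 higher and 8 to 9 lower in ‘damaged’, 0 to 0 between MII and ‘damaged’, and 5 to 9 genes with changed transcript use. Over all genes tested, those fits gave 469 to 738 DEGs up and 2189 to 2384 down.

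With the replicate number as a block, 25 genes were higher and 11 lower in MIX, with 6 DEGs up and 6 down, 25 higher and 11 lower in MII, 24 and 10 in ‘damaged’, 0 between MII and ‘damaged’, and 6 with changed transcript use. Over all 13230 genes tested, DEGs in MIX with the block numbered 571 up and 2208 down. The numbers were not taken as pairs in the main fit. Deviations of same-numbered libraries correlated at -0.102 to 0.320 and passed 0.1 in 3 of 13 pairs. The correlation was negative only for GV replicate 1 with MII replicate 1. Libraries of different number were not set beside these, so whether the numbers mark shared collections was not settled. Depth limits *MAD1L1*, *CENPT*, *HJURP*, *OIP5* and, in MIX, *MAD2L1BP*, whose counts were low.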

Other observations

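GV replicate 3, which entered only the alternative with all 5 GV libraries, lay within the TPM range of the other 4 GV libraries for 8 of the 43 genes and within that of the 10 MIX libraries for 6. It was below both ranges for *NDC80* (135 TPM, against 208 to 278 in the other GV libraries), *MAD2L1* (265, against 469 to 938) and *CENPI* (13.6, against 29.7 to 48.7), which rose after maturation. For *SPC24* (174, against 205 to 214 in GV and 6.91 to 12.0 in MIX), *SKA1* (1208, against 1837 to 2119 and 169 to 513) and *DSN1* (66.9, against 83.9 to 105 and 8.26 to 14.4) it lay below the other GV libraries and above MIX. *PMF1* was at 120.0 TPM, above the other GV libraries (46.0 to 93.5), and *NDC80* over *SPC24* was 0.780, on the GV side of that ratio.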
